A study of Drosophila melanogaster with 12 samples.

Results

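The 55 genes described here act in mitosis and were followed across 4 Drosophila genotypes in sorted midgut cells that the labels call early enterocytes. They were chosen by matching a list of gene symbols exactly to the symbols in the authors' deposited count table, and 55 of 55 listed symbols were found among its 8802 genes. The flies carried myoIA-Gal4, a driver active in enterocytes, with UAS-GFP and tubGal80ts, which holds the driver off until the flies are warmed. The partner stock was Canton-S for control and UAS-SvbRNAi for svb RNAi. It was UAS-SvbACT::GFP for SvbACT, the activator form of the transcription factor Shavenbaby, and UAS-Svb3Kmut::GFP for SvbREP, the repressor form. Virgin females were kept for 3 days at room temperature and for 6 days at 29 °C, and were dissected at 9 days of age. Each library held GFP-positive cells from a pool of posterior midguts (regions R3 to R5), and each genotype had 3 libraries made on different days, 12 in all. Control flies lacked a UAS-Svb transgene and came from another parental stock, so the effects of stock and transgene cannot be told apart. SvbACT and SvbREP themselves carried GFP, so in those crosses more than the UAS-GFP marker could give green cells.

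Mitosis is driven by Cdk1 with its cyclins, which the phosphatase String switches on and which the Polo and Aurora kinases work beside. The spindle then attaches to kinetochores, large protein assemblies built on centromeric chromatin, and a checkpoint holds back anaphase until every chromosome is attached. Condensin compacts the chromosomes, centrosomes organise the spindle poles, and the passenger complex and centralspindlin guide cytokinesis. In the fly midgut, division is known mainly from the intestinal stem cells, and enterocytes are differentiated cells that enlarge by copying DNA without dividing.

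Library totals ran from 3209182 to 8881488 counts. A floor of 3 counts corresponded to 0.338 to 0.935 CPM (the count scaled to a library total of 1000000), which covers counting error only. All 55 genes were among the 8296 that passed the filter on low counts, and 49 of them had at least 10 counts in each control library. Counts of ovo, the gene that encodes Shavenbaby, were 11.3, 2.06 and 1.28 CPM in control and 16.1, 7.91 and 6.54 CPM in the svb RNAi-labelled libraries. Counts over the whole gene were therefore not lower where the label says it was targeted (log2 fold change 1.00, edgeR adjusted p 0.344). Such counts do not separate the transcripts of the gene. Directions given for these libraries, also called svb RNAi below, rest on that label. In SvbACT ovo stood at 217, 182 and 105 CPM, and in SvbREP at 525, 227 and 170 CPM, all above control.

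The summed counts of the 55 genes made up a small share of each library, which was lowest in control. The share was 0.133%, 0.124% and 0.151% in control libraries 1, 2 and 3, a mean of 0.136% ± 0.014 (SD, n = 3). It was 0.33%, 0.247% and 0.295% in the svb RNAi-labelled libraries, a mean of 0.291% ± 0.0417 (SD, n = 3). It was 0.211% ± 0.0226 in SvbACT and 0.211% ± 0.0237 in SvbREP (SD, n = 3 each), with single libraries from 0.188% to 0.239%. The control libraries overlapped none of the others. By library totals the svb RNAi-labelled libraries lay above all SvbACT and SvbREP libraries, but svb RNAi library 2 only narrowly (0.247% beside 0.239% in SvbREP library 1). In sorted bulk cells, more cells of a dividing type and more mitotic RNA per cell cannot be told apart.

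**Figure D1:**
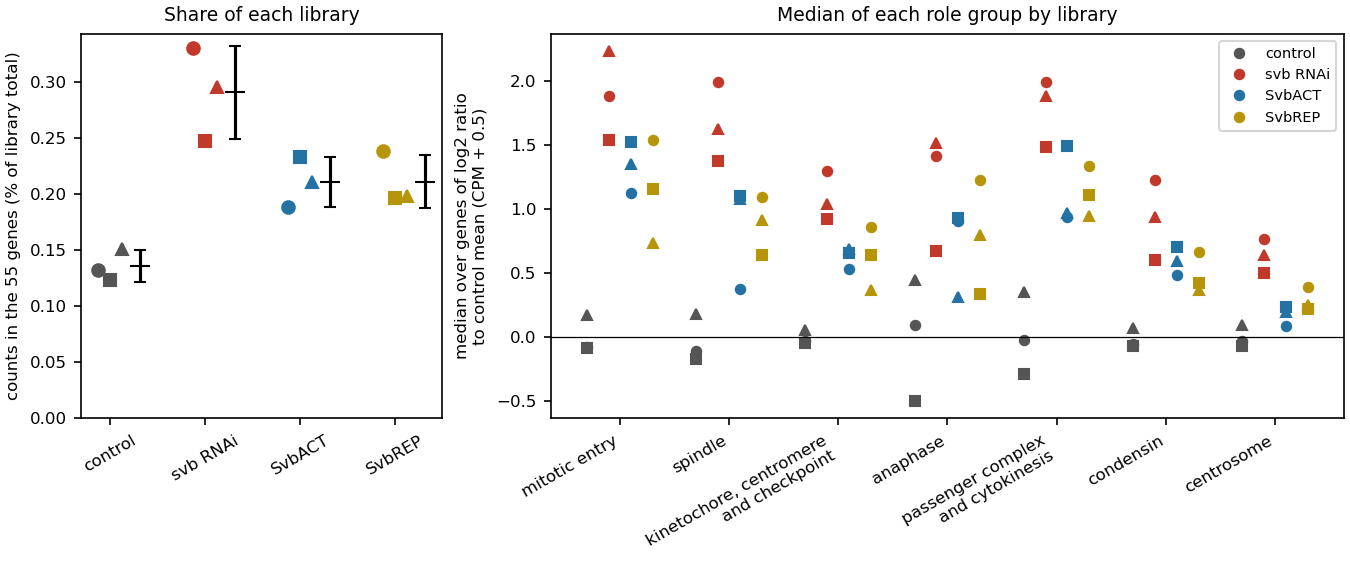
Left, counts in the 55 mitotic genes as a percentage of each library's total, with the mean and SD of the 3 libraries beside the points. Right, the median over the genes of each role group of the log2 ratio to the control mean (CPM + 0.5). Circles, squares and triangles are libraries 1, 2 and 3 of a genotype. Control shares run from 0.124% to 0.151% and all others from 0.188% to 0.33%, while the centrosome group shows the smallest distances from control.

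Measured per kb of exon, these genes were expressed at low levels. In control the median over the 55 genes was 4.59 CPM per kb. It was 12.8 CPM per kb over the 8183 genes that passed the filter and had a length, and 48 of the 55 lay below that median. The median level of the 55 genes was 11.97 CPM per kb in the svb RNAi-labelled libraries, 8.58 in SvbACT and 9.56 in SvbREP. Over the same filtered genes it was 15.1, 13.4 and 13.5 CPM per kb. The lowest level in control was that of cid, the centromeric histone, at 0.910 CPM per kb, and the highest that of Klp10A, a kinesin-13 that depolymerises microtubules at spindle poles, at 24.2 CPM per kb. In the other 3 genotypes the highest level was that of scra (anillin, a scaffold of the cytokinetic ring) and the lowest that of pim (securin, the inhibitor of separase) in svb RNAi and SvbACT and of Sse (separase) in SvbREP.

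In the svb RNAi-labelled libraries, 40 of the 55 genes rose against control and 0 fell (edgeR quasi-likelihood test, Benjamini-Hochberg adjusted p under 0.05), where 9.28% of all tested genes were called higher and 4.62% lower. Their median log2 fold change was 1.38, and the median over all tested genes was 0.16. With TMM scaling, which takes out that general shift, the medians were 1.22 and 0.01, and 35 of the 55 were called higher, where 4.89% of all genes were. The same change of scaling turned the split of all calls in this comparison from 66.8% higher to 44.0% higher. The 3 libraries lay wholly above control for 48 of the 55 genes, where 25.7% of all genes did so, and wholly below it for 1, Mis12, where 11.9% of all genes did so. Of the 40 calls, 26 held when any 1 of the 12 libraries was left out. Those lost without at least 1 library were Klp10A, sub, aurA, Kmn1, Nuf2, Spc25, cana, Mps1, fzy, aurB, barr, SMC2, Cap-G and asl.

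In SvbACT 9 of the 55 genes rose against control and 0 fell (edgeR adjusted p under 0.05), where 0.554% of all tested genes were called higher and 0.868% lower. These were asp, stg, CycA, rod, Kmn1, cmet, thr, pav and feo. The median log2 fold change of the 55 genes was 0.82, beside 0.02 over all genes, and the SvbACT libraries lay wholly above control for 36 of them, where 7.93% of all genes did so. With the shared library number of the sample descriptions as a block, 20 of the 55 were called higher, where 1.54% of all genes were. The 11 added were mud, ncd, CycB, polo, Spc105R, BubR1, borr, Incenp, sti, SMC2 and Cap-D2. The sample titles number some libraries differently, and a block on the title numbers gave 3 calls. Below, the block means the description numbers unless the titles are named. DESeq2 called 23 higher, where it called 1.72% of all genes. The edgeR count of 9 became 5 without SvbACT library 1, 1 without SvbACT library 2, 2 without SvbACT library 3, 3 without control library 1, 1 without control library 2 and 4 without SvbREP library 2, and stg held its call throughout.

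In SvbREP 13 of the 55 genes rose against control and 0 fell (edgeR adjusted p under 0.05), where 0.53% of all tested genes were called higher and 0.675% lower. These were asp, mud, ncd, stg, Cdk1, rod, Kmn1, cmet, BubR1, thr, pav, feo and Cap-D2. The median log2 fold change was 0.83, beside 0.04 over all genes, and the SvbREP libraries lay wholly above control for 39 of the 55 genes, where 10.9% of all genes did so. With the block 17 were called, where 1.23% of all genes were, the 4 added being CycA, polo, Spc105R and Incenp. A block on the title numbers gave 2 calls. DESeq2 called 20 of the 55 higher, where it called 1.28% of all genes. The edgeR count of 13 became 1 without SvbREP library 1, 2 without SvbREP library 2 and 6 without SvbREP library 3. It was 3 without control library 1, 1 without control library 2, 5 without svb RNAi library 3, 6 without SvbACT library 2 and 5 without SvbACT library 3, and no call held throughout. All 3 comparisons use the same control libraries, so their values are set side by side below and not counted as separate support. The authors' deposited table called 36, 19 and 19 of the 55 genes higher in svb RNAi, SvbACT and SvbREP, where it called 9.66%, 1.35% and 1.16% of the tested genes.

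**Figure D2:**
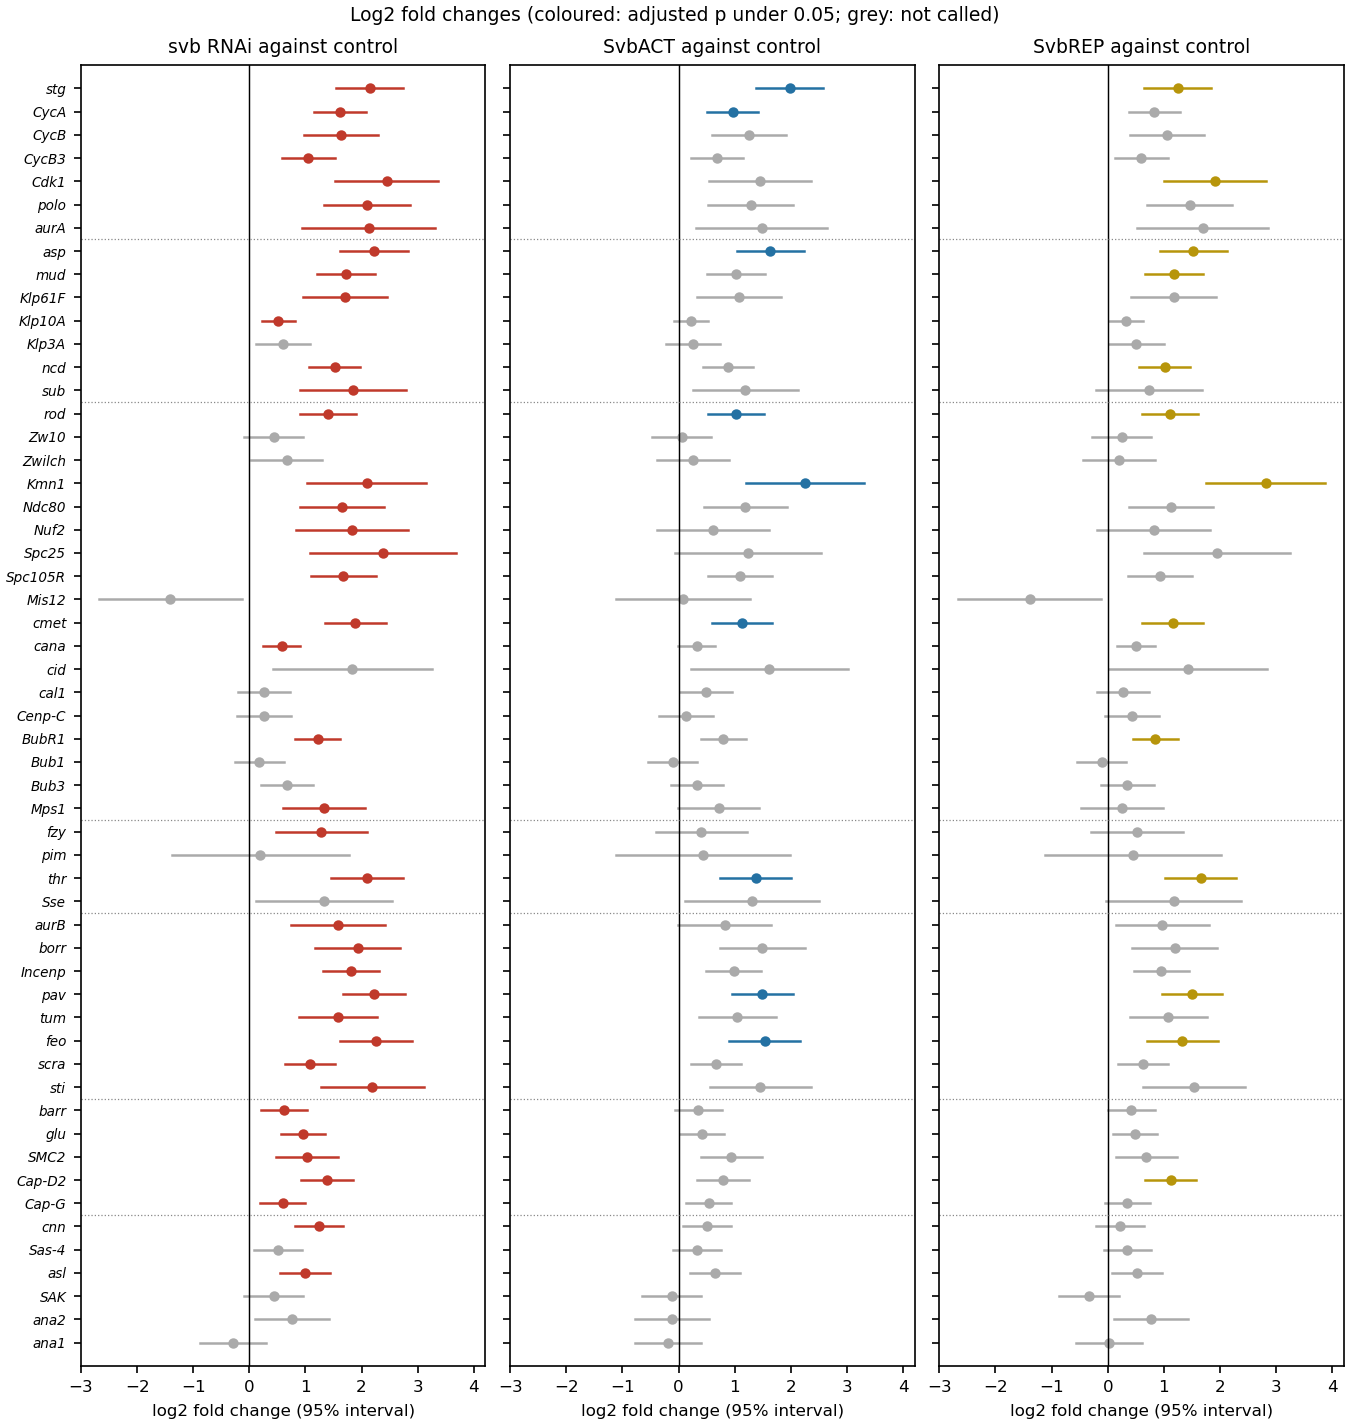
Log2 fold change against control of each of the 55 genes in the 3 other genotypes, with the 95% interval from the edgeR quasi-likelihood fit. Dotted lines separate the role groups, from mitotic entry at the top to centrosome genes at the bottom, and coloured points passed an adjusted p of 0.05. In the left panel 40 points are coloured, in the middle 9 and on the right 13, all to the right of 0.

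All 7 genes of mitotic entry rose in the svb RNAi-labelled libraries (median log2 fold change 2.10), where 9.28% of all genes were called higher. In SvbACT 2 of the 7 were called higher, stg and CycA (median 1.29), where 0.554% of all genes were. In SvbREP 2 of the 7 were called, stg and Cdk1 (median 1.25), where 0.53% of all genes were. All 7 lay wholly above control in both, where 7.93% and 10.9% of all genes did so. Transcripts of stg, the Cdc25 phosphatase that activates Cdk1 (chromosome 3R, 29251826 to 29255800, minus strand), stood at 4.31, 5.80 and 5.37 CPM in control. They stood at 24.9, 17.9 and 25.9 CPM in the svb RNAi-labelled libraries. They stood at 21.7, 18.8 and 20.7 CPM in SvbACT and at 15.8, 11.1 and 9.54 CPM in SvbREP. No control library overlapped another genotype, and every SvbACT library lay above every SvbREP library. The log2 fold changes of stg were 2.14 (SE 0.28, edgeR adjusted p 0.000678) for svb RNAi, 1.98 (SE 0.28, adjusted p 0.0036) for SvbACT and 1.25 (SE 0.28, adjusted p 0.0479) for SvbREP. The SvbREP call of stg was lost when any 1 library was left out.

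Cdk1, the mitotic kinase itself, had the largest fold change of the 55 genes in the svb RNAi-labelled libraries. Its level was 3.23, 2.43 and 4.86 CPM in control, 19.4, 13.3 and 24.6 CPM in svb RNAi, 7.96, 13.3 and 7.24 CPM in SvbACT and 16.7, 15.0 and 7.15 CPM in SvbREP. All libraries of the other genotypes lay above control, with log2 fold changes of 2.45 (SE 0.43, edgeR adjusted p 0.00437), 1.46 (SE 0.42, adjusted p 0.12) and 1.91 (SE 0.42, adjusted p 0.0479). The SvbREP call of Cdk1 held in 1 of the 12 fits with 1 library left out. CycA and CycB, the A-type and B-type partners of Cdk1, rose by log2 fold changes of 1.61 (SE 0.22) and 1.63 (SE 0.31) in the svb RNAi-labelled libraries (edgeR adjusted p 0.00077 and 0.0065). CycA also rose in SvbACT (0.96, SE 0.21, edgeR adjusted p 0.0431), a call lost without 8 of the 12 libraries in turn. CycB3, the third mitotic cyclin, rose least of this group, by 1.05 (SE 0.22, edgeR adjusted p 0.0105) in the svb RNAi-labelled libraries.

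The kinase gene polo (chromosome 3L, 20309654 to 20313466, plus strand) serves from mitotic entry to cytokinesis. It stood at 12.02, 10.9 and 28.6 CPM in control, 85.1, 47.8 and 86.6 CPM in svb RNAi, 35.0, 45.5 and 43.9 CPM in SvbACT and 59.2, 40.4 and 39.9 CPM in SvbREP. Control library 3 was more than 10 CPM above the other control libraries, and still no control library reached any other. The log2 fold change of polo was 2.10 (SE 0.36, edgeR adjusted p 0.00373) for svb RNAi, and 1.29 (adjusted p 0.0964) and 1.46 (adjusted p 0.0666) for SvbACT and SvbREP, where it was not called. With the block on the library number the adjusted p of polo was 0.0292 in SvbACT and 0.0189 in SvbREP. The kinase aurA, found at centrosomes and spindle poles, was called in the svb RNAi-labelled libraries alone of the 3 comparisons with control (2.12, SE 0.55, edgeR adjusted p 0.024). It had few reads, with 6 to 18 counts per control library, and its call there was lost without svb RNAi library 3 or any 1 control library.

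Of the 7 spindle genes, 6 were called higher in the svb RNAi-labelled libraries (median log2 fold change 1.70), 1 in SvbACT and 3 in SvbREP. Over all genes 9.28%, 0.554% and 0.53% were called higher. Wholly above control were 7, 5 and 6 of the 7, where 25.7%, 7.93% and 10.9% of all genes were. The gene asp, whose product holds microtubule minus ends together at spindle poles, lay at 12.7, 13.8 and 22.0 CPM in control and at 98.6, 58.2 and 69.5 CPM in the svb RNAi-labelled libraries. It lay at 39.0, 56.9 and 54.3 CPM in SvbACT and at 57.4, 44.4 and 36.6 CPM in SvbREP, so control stood apart from every other genotype. It was called in all 3 comparisons, with log2 fold changes of 2.23 (SE 0.28, edgeR adjusted p 0.000665), 1.64 (SE 0.28, adjusted p 0.0147) and 1.53 (SE 0.28, adjusted p 0.0219). With 1 library left out, the asp call held in 9 of 12 fits for SvbACT and in 8 for SvbREP.

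The spindle-orienting protein gene mud and ncd, a minus-end motor that focuses spindle poles, rose in the svb RNAi-labelled libraries (1.72 and 1.52, edgeR adjusted p 0.00102 and 0.000994) and in SvbREP (1.19 and 1.01, edgeR adjusted p 0.0353 and 0.0383). Each of these SvbREP calls held in 5 of the 12 fits with 1 library left out. Klp61F, the kinesin-5 that pushes poles apart, and sub, a kinesin-6 of the central spindle, rose by 1.70 and 1.85 in the svb RNAi-labelled libraries. Klp10A rose by a small step there, from 125 ± 1.01 CPM to 179 ± 20.0 CPM (SD, n = 3 each; log2 fold change 0.52, edgeR adjusted p 0.0281), a call lost with TMM scaling (adjusted p 0.11). Klp3A, a kinesin-4 of the midzone, had a log2 fold change of 0.60 and was not called (edgeR adjusted p 0.0896). Counting the kinesin motors of all role groups, 7 of 8 rose in the svb RNAi-labelled libraries, where 9.28% of all genes were called higher. Among them the calls of Klp10A and of the kinetochore gene cana were lost with TMM scaling (edgeR adjusted p 0.11 and 0.115). Reads shared between related kinesins were not separable here.

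Of 18 kinetochore, centromere and checkpoint genes, 10 were called higher in the svb RNAi-labelled libraries (median log2 fold change 1.27), 3 in SvbACT and 4 in SvbREP. Over all genes 9.28%, 0.554% and 0.53% were called higher. In svb RNAi 17 of the 18 had positive fold changes, where 61.7% of all genes did. Wholly above control were 13, 9 and 10 of the 18, where 25.7%, 7.93% and 10.9% of all genes were. Genes of the outer, microtubule-binding layer were among those that rose. The Ndc80 complex genes Ndc80, Nuf2 and Spc25 rose by 1.66, 1.83 and 2.39 in the svb RNAi-labelled libraries, and Spc105R, the KNL1 scaffold, by 1.68 (edgeR adjusted p 0.0106, 0.0227, 0.0229 and 0.00246). Spc25 was at 5, 8 and 4 counts in the control libraries and at 43, 52 and 9 counts in the svb RNAi libraries, and its call was lost without any 1 control library or without svb RNAi library 1 or 2. Of these 4 genes none was called in SvbACT or SvbREP, with log2 fold changes from 0.62 to 1.24 and from 0.82 to 1.95, but with the block on the library number Spc105R was called in both (adjusted p 0.011 and 0.0267). The motor gene cmet (CENP-E) stood at 28.7, 18.5 and 35.5 CPM in control and 117, 84.2 and 105 CPM in svb RNAi. In SvbACT it stood at 62.9, 68.5 and 49.0 CPM and in SvbREP at 74.1, 62.6 and 47.1 CPM, again with no overlap with control. It was called in all 3 comparisons (1.89, 1.13 and 1.16, edgeR adjusted p 0.000791, 0.0431 and 0.0443). Of the 12 fits with 1 library left out, 4 kept the cmet call in SvbACT and 4 kept it in SvbREP. The neighbour and relative of cmet, cana, had 0.58, 0.32 and 0.51 and was called only in the first comparison, a call lost with TMM scaling.

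The Mis12 complex, which joins the outer kinetochore to the centromere, held a pair of genes with fold changes of opposite sign in svb RNAi and SvbREP. Kmn1 (chromosome X, 11571383 to 11572442, minus strand) was at 0.718, 2.06 and 1.02 CPM in control, which was 4, 11 and 4 counts. It was at 4.95, 7.30 and 4.05 CPM in svb RNAi, 7.69, 4.84 and 5.96 CPM in SvbACT and 8.23, 12.4 and 6.56 CPM in SvbREP. Every library outside control was higher than every control library, with log2 fold changes of 2.09 (SE 0.49, edgeR adjusted p 0.0172), 2.25 (SE 0.49, adjusted p 0.0425) and 2.82 (SE 0.49, adjusted p 0.0187). For svb RNAi the Kmn1 call was lost without control library 1 or 3 or svb RNAi library 2, and for SvbREP without control library 3 or SvbREP library 2. For SvbACT it was lost without any 1 control or SvbACT library or without SvbREP library 2. Of the Kmn1 exon positions 14.8% are shared with a gene on the other strand, CG11699, and the strand setting of the counting is not given in the sources used here.

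Mis12 (chromosome 3L, 6968035 to 6969048, minus strand) was at 5.38, 6.36 and 4.86 CPM in control, 3.50, 2.19 and 0.312 CPM in svb RNAi, 4.05, 5.97 and 7.67 CPM in SvbACT and 1.70, 2.04 and 2.68 CPM in SvbREP. The svb RNAi and SvbREP libraries all lay below control, and the SvbACT libraries overlapped it. It was not called, at log2 fold changes of -1.41 (95% interval -2.67 to -0.14, edgeR adjusted p 0.124) for svb RNAi, 0.08 for SvbACT and -1.39 (95% interval -2.67 to -0.11, edgeR adjusted p 0.346) for SvbREP. Its counts were 1 to 53 per library, and svb RNAi library 3 held 1 count.

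The Rod-Zw10-Zwilch complex, which brings dynein to kinetochores, was uneven. Its gene rod rose in all 3 comparisons (1.40, 1.02 and 1.11, edgeR adjusted p 0.00341, 0.0473 and 0.0404). Of the 12 fits with 1 library left out, 1 kept the rod call in SvbACT and 4 kept it in SvbREP. Zw10 and Zwilch had log2 fold changes of 0.44 and 0.67 in the svb RNAi-labelled libraries and were not called in any comparison. The checkpoint kinase Mps1 and BubR1 rose in the svb RNAi-labelled libraries (1.33 and 1.22, edgeR adjusted p 0.0227 and 0.00191), and BubR1 also in SvbREP (0.85, edgeR adjusted p 0.0448). The SvbREP call of BubR1 held in 1 of the 12 fits with 1 library left out. Bub1, another checkpoint kinase, stood at 71.4, 67.9 and 72.4 CPM in control and at 88.9, 91.8 and 57.6 CPM in the svb RNAi-labelled libraries. Those libraries lay on either side of control, and the log2 fold change was 0.18 (95% interval -0.26 to 0.61, edgeR adjusted p 0.599). Bub3, which binds Bub1 and BubR1, was at 0.67 (edgeR adjusted p 0.0563, or 0.0228 with the block). Among the genes of centromeric chromatin, cid, its loading factor cal1 and Cenp-C, none was called in any comparison. The log2 fold change of cid was 1.83 in svb RNAi with a 95% interval from 0.42 to 3.25 on 3 to 7 counts per control library, and those of cal1 and Cenp-C were both 0.26.

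**Figure D3:**
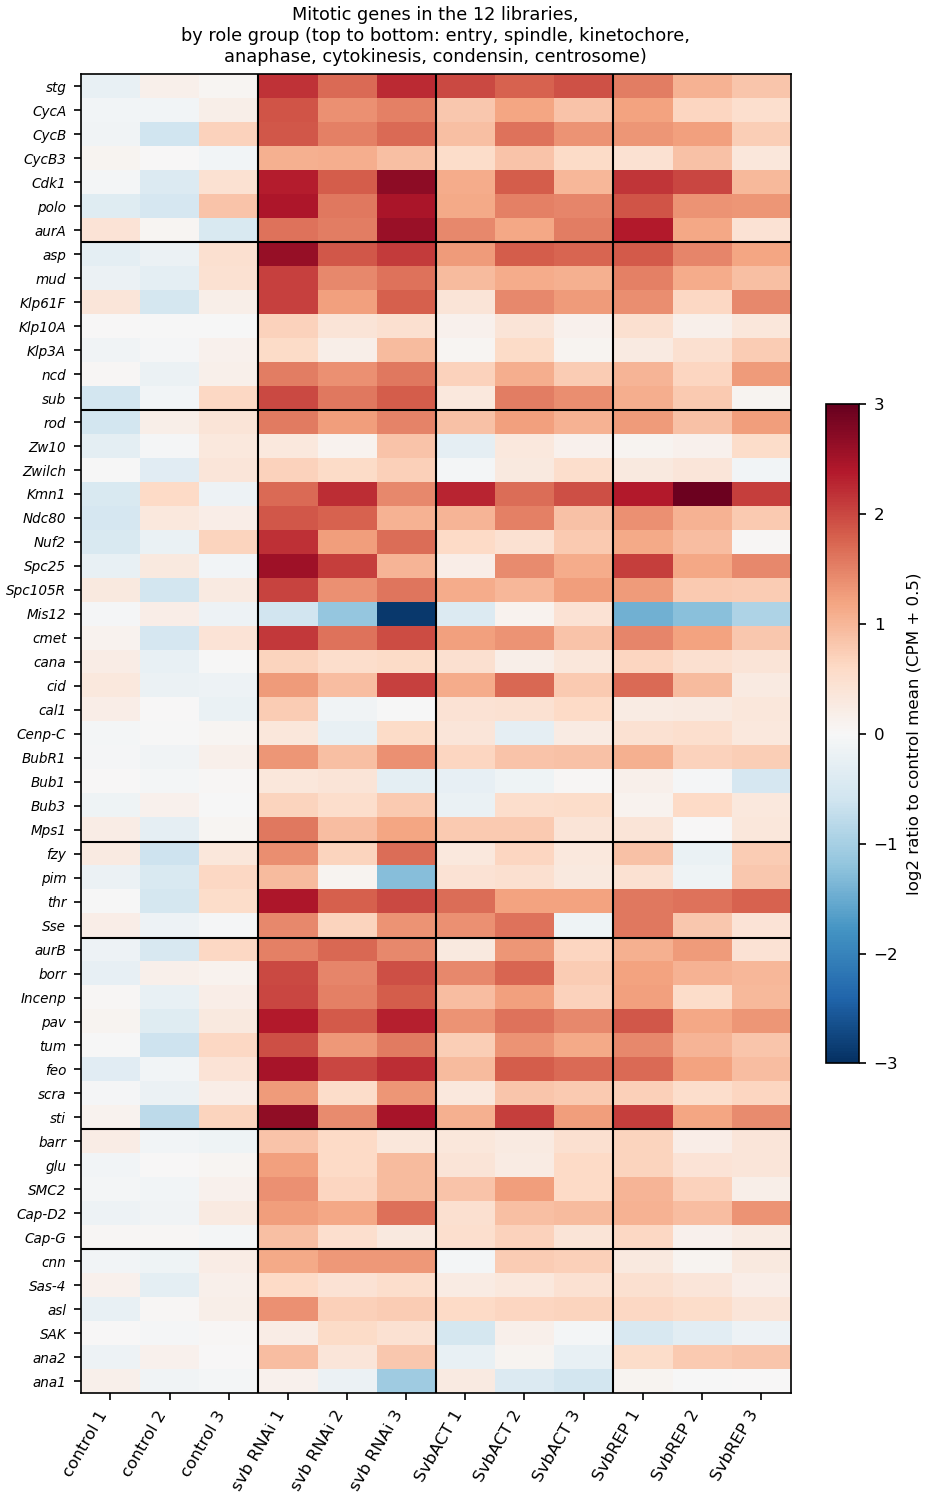
Log2 ratio of each library to the control mean (CPM + 0.5) for the 55 genes, with the role groups separated by black lines and red for higher than control. Mitotic entry and cytokinesis rows are red in all 9 libraries outside control, whereas Mis12 is blue in the svb RNAi and SvbREP libraries and the centriole genes SAK and ana1 show little red.

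At the step to anaphase 2 of 4 genes were called higher in the svb RNAi-labelled libraries, thr and fzy, where 9.28% of all genes were. In SvbACT and in SvbREP 1 was called, thr, where 0.554% and 0.53% of all genes were called higher. The product of thr is a subunit of the fly separase complex. Transcripts of thr stood at 7.54, 5.05 and 11.3 CPM in control, 42.9, 27.4 and 31.2 CPM in svb RNAi, 25.2, 18.0 and 18.1 CPM in SvbACT and 23.7, 24.3 and 26.8 CPM in SvbREP. No library of another genotype came within control, and the log2 fold changes were 2.10 (SE 0.30, edgeR adjusted p 0.0011), 1.38 (SE 0.29, adjusted p 0.037) and 1.66 (SE 0.30, adjusted p 0.0207). With 1 library left out, the thr call held in 5 of 12 fits for SvbACT and in 8 for SvbREP. The partner of thr, Sse, the separase protease, had log2 fold changes of 1.33, 1.32 and 1.17 and was not called (edgeR adjusted p 0.126, 0.322 and 0.4). The securin gene pim, at 1 to 20 counts per library, had 0.19, 0.44 and 0.46. The Cdc20 gene fzy, which activates the anaphase-promoting complex, rose in svb RNAi (1.28, edgeR adjusted p 0.0399), a call lost with TMM scaling.

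All 8 genes of the passenger complex and cytokinesis rose in the svb RNAi-labelled libraries (median log2 fold change 1.87), where 9.28% of all genes were called higher. The same 2 of the 8, pav and feo, were called higher in SvbACT (median 1.25) and in SvbREP (median 1.14), where 0.554% and 0.53% of all genes were. All 8 had positive fold changes in both. In each, 7 of the 8 lay wholly above control, where 7.93% and 10.9% of all genes did so. The kinesin-6 gene pav (chromosome 3L, 4242734 to 4246233, plus strand), the motor of centralspindlin, stood at 12.6, 9.16 and 14.6 CPM in control and 63.9, 43.5 and 62.0 CPM in svb RNAi. In SvbACT it stood at 30.9, 37.8 and 33.2 CPM and in SvbREP at 44.3, 27.0 and 30.7 CPM. Control stood below every other library, and pav had the smallest adjusted p of the 55 genes in the svb RNAi-labelled libraries. The log2 fold changes of pav were 2.22 (SE 0.25, edgeR adjusted p 0.000476), 1.50 (SE 0.25, adjusted p 0.0139) and 1.50 (SE 0.25, adjusted p 0.014), in the same order. The SvbACT call was lost without control library 2 or SvbACT library 2, and the SvbREP call without control library 2 or SvbREP library 1.

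The midzone bundler feo (PRC1) rose by 2.26, 1.54 and 1.33 in the comparisons with control (edgeR adjusted p 0.000751, 0.0248 and 0.0479). Its call held in 8 of the 12 fits with 1 library left out for SvbACT and in 1 for SvbREP. Its centralspindlin neighbour tum rose by 1.58 in the svb RNAi-labelled libraries (edgeR adjusted p 0.00895) and had 1.05 and 1.08 in SvbACT and SvbREP, uncalled. Of the passenger complex, the kinase gene aurB (chromosome 2L, 10856797 to 10858094, minus strand) stood at 5.03, 3.93 and 8.95 CPM in control, 17.1, 19.8 and 16.2 CPM in svb RNAi, 7.02, 15.0 and 9.16 CPM in SvbACT and 12.4, 14.4 and 7.75 CPM in SvbREP. The svb RNAi libraries lay above control, while SvbACT library 1 and SvbREP library 3 fell within its range. The log2 fold change of aurB was 1.59 (SE 0.39, edgeR adjusted p 0.02) in svb RNAi, lost without control library 1 or 2 or svb RNAi library 2, and 0.82 and 0.98 in SvbACT and SvbREP (edgeR adjusted p 0.375 and 0.31). Its partners borr and Incenp rose by 1.93 and 1.81 in svb RNAi (edgeR adjusted p 0.00536 and 0.000678). The ring genes scra (anillin) and sti (citron kinase) rose there by 1.08 and 2.19 (edgeR adjusted p 0.00727 and 0.0075).

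All 5 condensin genes rose in the svb RNAi-labelled libraries, where 9.28% of all genes were called higher. Their median (log2 fold change 0.95) was lower than in the groups above. In SvbACT 0 of 5 were called, which says little where 0.554% of all genes were called higher. With the block 2 were called there, SMC2 and Cap-D2, where 1.54% of all genes were. In SvbREP 1 of 5 was called, where 0.53% of all genes were. With TMM scaling 3 of the 5 were called in svb RNAi, where 4.89% of all genes were, the calls of barr and Cap-G being lost. The subunit gene Cap-D2 (chromosome 3R, 29675651 to 29680257, plus strand) stood at 17.6, 18.1 and 23.5 CPM in control, 47.6, 44.5 and 62.3 CPM in svb RNAi, 27.5, 36.9 and 38.1 CPM in SvbACT and 40.8, 37.8 and 50.4 CPM in SvbREP. All libraries outside control lay above it, with log2 fold changes of 1.38 (SE 0.21, edgeR adjusted p 0.00212), 0.79 (SE 0.21, adjusted p 0.0893, or 0.024 with the block) and 1.12 (SE 0.21, adjusted p 0.0266). The ATPase subunits glu and SMC2 rose by 0.95 and 1.02 in svb RNAi (edgeR adjusted p 0.00721 and 0.0213), the call of SMC2 being lost without control library 1 or 2 or svb RNAi library 1.

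Centrosome genes had the lowest median of the 7 role groups in each comparison with control. In SvbACT and in SvbREP 0 of 6 were called (medians 0.10 and 0.29), where 0.554% and 0.53% of all genes were called higher. At shares that low, 0 of 6 does not set these genes apart from others. In the svb RNAi-labelled libraries 2 of 6 were called higher (median log2 fold change 0.64), where 9.28% of all genes were. The called pair was cnn, a scaffold of the pericentriolar material, and asl, which recruits the duplication kinase SAK (1.25 and 0.99, edgeR adjusted p 0.00246 and 0.0106). The level of cnn was 98.2, 94.3 and 120 CPM in control, 228, 257 and 258 CPM in svb RNAi, 98.8, 177 and 170 CPM in SvbACT and 127, 109 and 128 CPM in SvbREP. The svb RNAi libraries stood above all 9 others, and SvbACT library 1 and SvbREP library 2 fell within the control range. The centriole genes Sas-4, SAK, ana2 and ana1 had log2 fold changes of 0.51, 0.43, 0.76 and -0.29 in svb RNAi and were not called (edgeR adjusted p 0.0938, 0.255, 0.107 and 0.505). Of the SAK exon positions 18.1% are shared with M6 on the other strand.

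**Figure D4:**
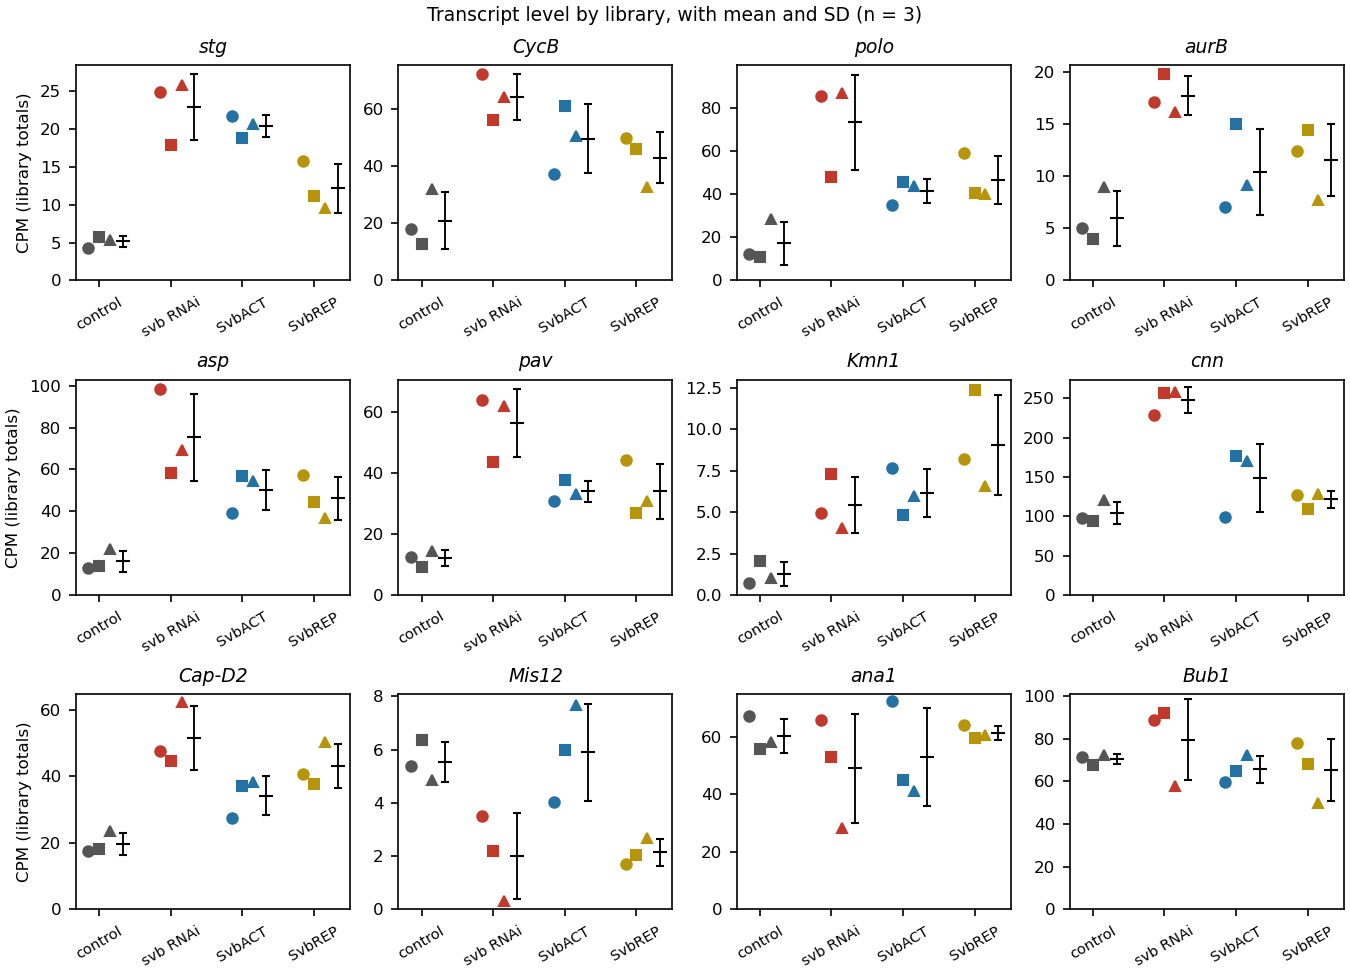
Level in CPM of 12 of the genes in each library, with the mean and SD (n = 3) beside the points, and circles, squares and triangles for libraries 1, 2 and 3. For stg, polo, asp, pav and Kmn1 no control point reaches any other genotype, for cnn the svb RNAi points alone stand apart, Mis12 is low in svb RNAi and SvbREP, and ana1 and Bub1 overlap control in svb RNAi.

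When the libraries were set side by side within a shared number, the median of the 55 genes was higher than control each time, with 46 to 53 of the 55 genes higher in a pair. In the svb RNAi-labelled libraries the median log2 difference from the control library of the same number was 1.41, 1.27 and 1.11 for numbers 1, 2 and 3, beside 0.19, 0.12 and 0.12 over all genes. In SvbACT it was 0.65, 1.07 and 0.58, beside -0.05, 0.04 and 0.02 over all genes. In SvbREP it was 1.08, 0.78 and 0.42, beside 0.08, 0.05 and -0.06 over all genes. The lowest value of each genotype was that of number 3, whose control library had the highest share of mitotic counts.

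The activator and repressor forms were also compared with each other, and 0 of the 55 genes were called between them, where 0.0964% of all tested genes were (edgeR adjusted p under 0.05). DESeq2 also called 0, where it called 0.494% of all genes, and the median log2 fold change of SvbACT against SvbREP was -0.03, as it was over all genes. An unadjusted p under 0.05 was reached by 3 of the 55 genes, where 5.12% of all tested genes reached it. In SvbACT against SvbREP stg had a log2 fold change of 0.73 (95% interval 0.17 to 1.29), Mis12 one of 1.47 and the centriole gene ana2 one of -0.89, with adjusted p-values of 0.796, 0.883 and 0.73. For CycB and polo the 95% intervals ran from -0.43 to 0.83 and from -0.90 to 0.55, so differences of that size remain possible. The different stocks of the transgenes cannot be told apart from their forms.

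The libraries labelled svb RNAi were set against each form. Against SvbACT the median log2 fold change of the 55 genes was 0.46, beside 0.18 over all genes, and 0 were called, where 1.81% of all tested genes were called in either direction (edgeR adjusted p under 0.05). DESeq2 called 0, where it called 5.34% of all genes. An unadjusted p of 0.05 was passed by 21 of the 55, where 19.1% of all genes passed it, and with the block on the library number Incenp and cnn were called higher (adjusted p 0.0434 and 0.0257), where 3.3% of all genes were. Against SvbREP the median was 0.46, beside 0.15 over all genes, and 1 of the 55 was called higher, where 0.687% of all tested genes were. That gene was cnn, at a log2 fold change of 1.03 (SE 0.20, edgeR adjusted p 0.0167), and the call was lost without library 2 or 3 of either genotype, while CycA joined it without SvbREP library 1. With the block CycA and Incenp were called as well (adjusted p 0.0357 and 0.0342), where 3.0% of all genes were called higher. Within library numbers 1, 2 and 3 the median log2 difference from SvbACT was 0.78, 0.12 and 0.49, beside 0.27, 0.10 and 0.11 over all genes. From SvbREP it was 0.52, 0.28 and 0.63, beside 0.14, 0.085 and 0.21 over all genes. With TMM scaling the medians of the 55 genes were 0.31 against SvbACT and 0.32 against SvbREP, beside 0.02 and 0.01 over all genes. TMM also moved the split of all calls from 35.3% to 18.0% higher against SvbACT, and from 33.3% to 18.6% higher against SvbREP.

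Fold changes were larger among the genes of lower level. Divided at the median level per kb over all libraries, the 28 genes at or below it had a median log2 fold change of 1.67 in the svb RNAi-labelled libraries and the 27 above it one of 1.08. The same split gave 1.05 and 0.66 in SvbACT and 1.12 and 0.62 in SvbREP. These are descriptions of the list, with no test.

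Another 84 mitotic genes from a wider list, which the 55 do not include, were measured as well. In the svb RNAi-labelled libraries 17 of the 84 rose and 0 fell (edgeR adjusted p under 0.05), where 9.28% of all genes rose. Their median log2 fold change was 0.39, beside 0.16 over all genes. Under TMM scaling 10 were higher and 1 lower, Septin1, where 4.89% and 6.23% of all genes were. In SvbACT 0 of the 84 were called, where 0.554% of all genes were called higher and 0.868% lower. There 17 of the 84 were at an unadjusted p under 0.05, where 13.3% of all genes were, and 4 were higher by DESeq2, where 1.72% were. In SvbREP 1 was called, where 0.53% of all genes were called higher. The medians were 0.11 and 0.12, beside 0.02 and 0.04 over all genes. Among those that rose in svb RNAi were the cytokinesis gene pbl (1.78), the Greatwall kinase gene gwl (2.29), the Aurora A activator gene bora (3.87) and the centrosomal gene spd-2 (1.70). The motor genes nod and Klp67A, the microtubule genes chb and mei-38, the augmin genes dgt2 and msd5, and Grip71 and gammaTub37C of the gamma-tubulin machinery rose as well. Rises of 0.51 to 0.80 were seen for SMC3 of cohesin, the septin gene pnut and the anaphase-promoting complex genes shtd and ida. The Cdk1 partner gene Cks30A rose in both svb RNAi (1.65, edgeR adjusted p 0.0184) and SvbREP (1.85, edgeR adjusted p 0.043). Under TMM scaling the calls of Klp67A, chb, Grip71, shtd, ida, SMC3 and pnut were lost.

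Markers of the cell types that the sort could hold were measured in the same libraries. Summed CPM of 8 measured progenitor markers, of 10 listed, ran from 5627 to 6027 in control, 4018 to 4683 in svb RNAi, 4558 to 6494 in SvbACT and 4652 to 5124 in SvbREP. Those of 9 measured enterocyte markers, of 10 listed, ran from 758 to 1425, 822 to 2525, 900 to 1037 and 762 to 1266 CPM. In libraries labelled enterocytes, control thus held esg, which marks progenitors, at a mean of 1350 CPM, beside Myo31DF, the gene of the driver, at 514 CPM. The stem cell ligand gene Dl rose with the mitotic genes in all 3 comparisons (1.54, 1.25 and 0.97, edgeR adjusted p 0.00102, 0.0147 and 0.0467). Its level went from 178 ± 36.0 CPM in control to 518 ± 38.1, 425 ± 105 and 349 ± 88.9 CPM (SD, n = 3 each). In SvbACT and in SvbREP Dl was the only 1 of the 8 progenitor markers called, where 0.554% and 0.53% of all tested genes were called higher. The median log2 fold changes of the 8 markers were 0.005 in SvbACT and -0.076 in SvbREP. In svb RNAi sna rose too (2.39), whereas esg, klu and zfh2 fell (-0.73, -0.58 and -1.06). So 2 of 8 progenitor markers rose there and 3 fell, where 9.28% of all tested genes were called higher and 4.62% lower.

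Summed enteroendocrine markers, 10 of 10 measured, ran from 628 to 2194 CPM in control, 370 to 905 in svb RNAi, 174 to 346 in SvbACT and 162 to 226 in SvbREP. Of the 10, 1 rose and 1 fell in svb RNAi, where 9.28% of all tested genes were called higher and 4.62% lower. In SvbACT 5 fell and in SvbREP 5, where 0.868% and 0.675% of all tested genes were called lower. Summed visceral muscle markers, 10 of 10 measured, ran from 170 to 1034 CPM in control and from 13.4 to 596 CPM elsewhere. None was called, but libraries varied widely. Their median log2 fold changes were -1.73 in svb RNAi, -2.18 in SvbACT and -2.22 in SvbREP. Of the ovary and germline list 2 of 10 genes were in the table, at 0 to 9.24 CPM summed, and of the hemocyte list 3 of 6, at 22.4 to 59.9 CPM. The part of these cell types in the rise of the mitotic genes was not tested.

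**Figure D5:**
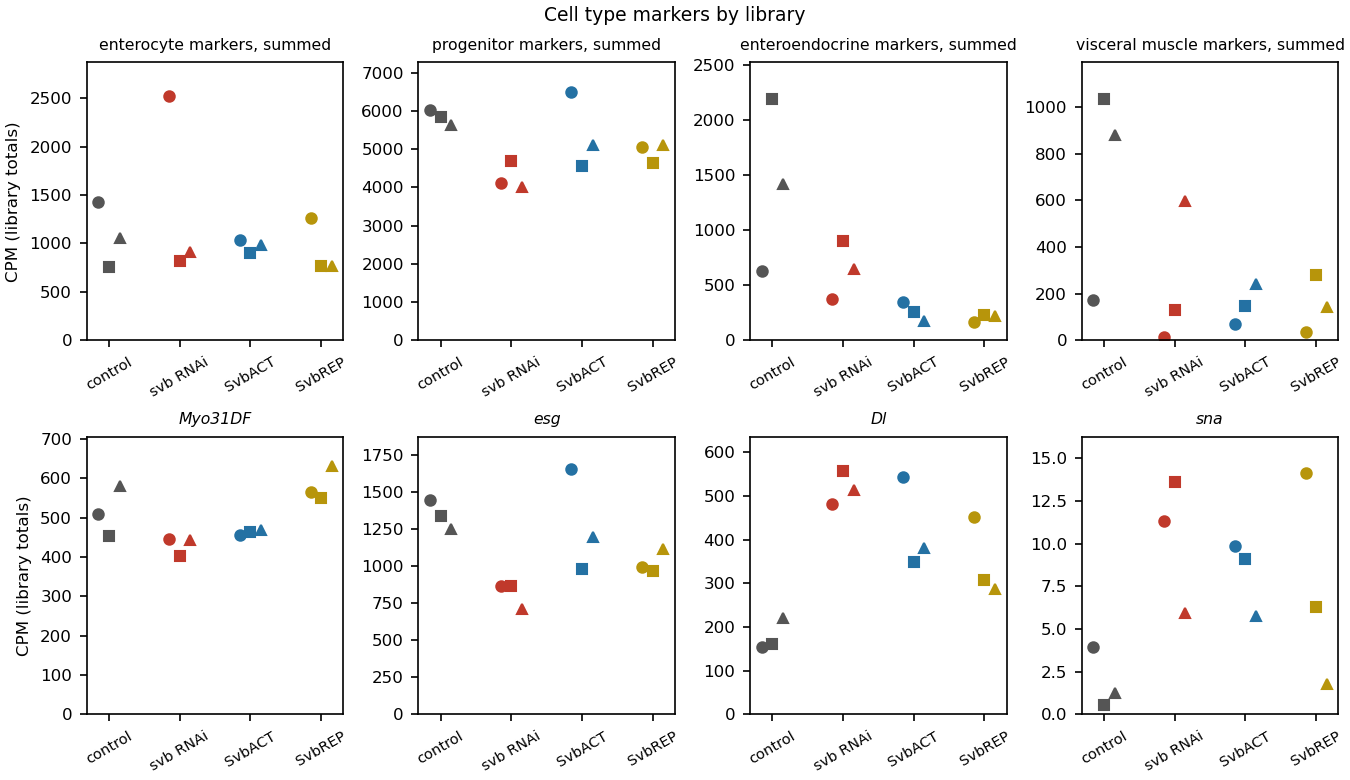
Top, summed CPM of the enterocyte, progenitor, enteroendocrine and visceral muscle markers in each library; bottom, CPM of Myo31DF, esg, Dl and sna. Circles, squares and triangles are libraries 1, 2 and 3. Dl is above all control libraries in every library of the other 3 genotypes, esg is lower in svb RNAi than in control, and enteroendocrine sums are lowest in SvbACT and SvbREP.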

How the data were processed

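RNA came from cells sorted from pooled midguts and, per the labels, was purified with MasterPure, made into libraries with Ovation SoLo and read as 100 nt single reads on a NovaSeq. The authors' deposited table gives raw counts per gene and library, and a deposited score of -1, 0 or 1 for the authors' call against control. The submitters' processing notes name FastQC 0.11.5, STAR 2.5.2b, HTSeq 0.6.0 and edgeR with build dm6. The annotation and strand setting are not given in the sources used here.

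Counts were fitted with edgeR 4.0.16 in R 4.3.3 (quasi-likelihood, genotype only, all 12 libraries, library totals as scaling, filterByExpr with a minimum count of 10, two-sided). P-values were Benjamini-Hochberg adjusted over the 8296 genes tested and called under 0.05. SE and 95% intervals come from the F statistic. Replicates were made on different days, per the labels. Scripts were tested on simulated data.

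Alternatives were TMM, DESeq2 1.42.0, no filter, a block on the replicate number and leaving out each library. Libraries of the same number in the sample descriptions deviated together in 18 of 18 pairs (correlation 0.115 to 0.424, mean 0.25), above 0.1 each. The block and the side-by-side comparison used these numbers. All pairs of a library 1 with a library 2 or 3 of another genotype had negative correlations. Pairs of a library 2 with a library 3 ran from -0.0974 to 0.1703, some above the same-number pairs. Numbers 2 and 3 were thus not clearly parted. The titles number some libraries differently, and by titles 9 of 18 pairs exceeded 0.1.

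The genes, lists and rules were chosen with earlier results of these data known. Named by rule were every called gene, the highest and lowest of each role group by level and the 3 largest changes per comparison. The rule also named stg, CycB, polo and aurB, and called genes of the wider list. The remaining genes of the 55 were described with their role group, outside this rule. Positions and exon lengths come from the Ensembl annotation of BDGP6.54, in which 14 of the 55 genes share exon positions with a gene on the other strand. A second header line naming 12 columns without values was not used.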

Additional observations from a re-analysis of the deposited data

How the results depend on the processing

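The direction of the median over the 55 genes against control was higher under every alternative run. With DESeq2 the number of genes called was 23 in SvbACT and 20 in SvbREP, and with the block on the description numbers it was 20 in SvbACT, and 21 with TMM in the same fit. The block on the title numbers gave 3 in SvbACT and 2 in SvbREP. With the description block the calls were 2 for svb RNAi against SvbACT (1 with TMM) and 3 for svb RNAi against SvbREP, and the pairing changed no other count of calls by over 1.5 times. The median log2 fold change for svb RNAi against control was 1.22 with TMM, 1.21 with DESeq2 and 1.22 with the block and TMM.

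Leaving out 1 library at a time gave 27 to 41 calls and medians of 1.31 to 1.52 for svb RNAi, 1 to 13 calls and medians of 0.73 to 1.01 for SvbACT, and 1 to 10 calls and medians of 0.71 to 1.06 for SvbREP, each against control. It gave 0 calls and medians of -0.11 to 0.10 for SvbACT against SvbREP, 0 calls and medians of 0.35 to 0.59 for svb RNAi against SvbACT, and 0 to 2 calls and medians of 0.34 to 0.61 for svb RNAi against SvbREP. Over the alternatives for the 44 genes named by rule, in each comparison with control and for cnn in svb RNAi against SvbREP, 2078 values kept direction and call, 244 lost a call, 68 gained one and 4 changed sign. Those were Mis12 in SvbACT, at -7.954e-05 without control library 3, -0.14 without SvbACT library 3 and up to 0.29 without SvbACT library 1, and pim in svb RNAi, at -0.08 without control library 2, -0.56 without svb RNAi library 1 and up to 0.68 without control library 3, none of them called. The cause was not tested. With 3 libraries a genotype and few counts for pim, cid, Spc25, Kmn1, aurA and Mis12, changes of moderate size could be missed.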
